A study of Mus musculus with 6 samples.

Results

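The genes described here are 9 factors and markers of blood stem cells, Angpt1, Tek, Cd34, Procr, Gata2, Tal1, Lmo2, Erg and Hlf, taken by name from a deposited table of 56748 genes, in which all 9 were found. They were followed in bulk RNA sequencing of mouse leukemia cells carrying MLL-AF9, an oncogenic fusion protein that joins MLL, a histone methyltransferase, to AF9. The groups were 3 libraries labelled Rbm5 KO (numbers 31, 32 and 40) and 3 labelled Rbm5 WT (numbers 25, 27 and 29). All 6 carry MLL-AF9, given as the cell line, and are labelled whole bone marrow, while the design text speaks of primary leukemia cells and the extraction protocol also of cultured cells. RBM5 is an RNA-binding protein of pre-mRNA splicing, and the question was how its loss alters the genes that sustain self-renewal in MLL leukemia. No source used here states how Rbm5 was deleted, or the strain, sex and age of the mice. The labels call the replicates independent without saying whether each library came from its own animal, so p-values measure the spread between these libraries.

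Blood stem cells are held in an immature state by a set of transcription factors that bind enhancers together. TAL1, a basic helix-loop-helix factor, GATA2, a zinc finger factor, and ERG, an ETS factor, contact DNA, and LMO2 bridges them without binding DNA itself. CD34, PROCR and the angiopoietin receptor TEK mark stem and progenitor cells at the surface, and several of these genes are also active in endothelium.

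Total counts per library ranged from 26359299 to 31807588. Rbm5 itself was at 269.0, 266.8 and 245.3 CPM (counts scaled to a library size of 1e6 after TMM normalisation) in the libraries labelled knockout, against 227.5, 214.1 and 173.6 CPM in those labelled wild type, so the targeted gene was not lower (log2 fold change 0.34, edgeR adjusted p = 0.107). Knockout and wild type below stand for these labels. The Y-linked gene Ddx3y had 2645, 2674 and 3311 counts in knockout libraries 31, 32 and 40 and 0 counts in each wild-type library, so sex and the knockout label cannot be told apart in any comparison. Summed CPM of 10 mature neutrophil markers was 9881, 8504 and 15380 in knockout libraries 31, 32 and 40, against 603.9, 1564 and 2242 in wild-type libraries 25, 27 and 29, and 6 of the 10 rose. In bulk RNA, fewer cells of a type and less RNA per cell cannot be told apart.

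Promoter windows from RefSeq (GRCm38.p6, 250 bases before to 50 after each annotated start) were available for 7 of the 9 genes, with 11 starts in all. They are shown for Cd34, Gata2 (its upstream start) and Hlf, whose fold changes were negative in every alternative fit, and for Tek, which was nearly silent. Capitals mark matches on either strand to AGATAA (a form of the GATA motif), CAGATG (an E-box of the kind TAL1 binds), and CAGGAA or CCGGAA (ETS motifs), none of which overlapped each other in these windows. Other forms of these motifs were not searched and stay in lower case.
Cd34 (chr1:194938571-194938870, plus strand): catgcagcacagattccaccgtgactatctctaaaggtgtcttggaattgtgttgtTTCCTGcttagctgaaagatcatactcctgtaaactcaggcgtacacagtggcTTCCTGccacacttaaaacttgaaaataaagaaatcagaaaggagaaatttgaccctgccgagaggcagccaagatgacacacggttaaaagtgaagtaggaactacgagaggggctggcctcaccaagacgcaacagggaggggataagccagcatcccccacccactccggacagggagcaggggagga
Gata2 (chr6:88193641-88193940, plus strand): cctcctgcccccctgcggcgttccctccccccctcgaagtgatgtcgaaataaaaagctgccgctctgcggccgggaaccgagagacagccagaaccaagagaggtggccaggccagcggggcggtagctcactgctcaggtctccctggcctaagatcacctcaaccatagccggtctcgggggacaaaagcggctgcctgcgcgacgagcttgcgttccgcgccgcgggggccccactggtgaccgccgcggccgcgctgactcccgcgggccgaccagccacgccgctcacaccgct
Hlf (chr11:90390868-90391167, minus strand): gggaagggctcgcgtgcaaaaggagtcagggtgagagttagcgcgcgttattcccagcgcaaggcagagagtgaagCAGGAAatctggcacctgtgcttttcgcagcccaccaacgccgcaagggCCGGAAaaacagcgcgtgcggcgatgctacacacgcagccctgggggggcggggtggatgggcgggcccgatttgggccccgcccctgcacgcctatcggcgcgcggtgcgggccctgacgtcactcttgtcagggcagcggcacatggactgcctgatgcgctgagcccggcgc
Tek (chr4:94739039-94739338, plus strand): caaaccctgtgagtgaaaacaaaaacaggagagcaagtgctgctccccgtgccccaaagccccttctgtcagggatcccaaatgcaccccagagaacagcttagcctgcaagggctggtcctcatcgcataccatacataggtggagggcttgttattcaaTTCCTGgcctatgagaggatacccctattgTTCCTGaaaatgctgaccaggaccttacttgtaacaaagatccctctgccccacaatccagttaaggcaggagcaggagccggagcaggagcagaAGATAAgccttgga
The Cd34 window held 2 matches to CAGGAA, at 194 and 141 bases before the start. In the Hlf window, CAGGAA and CCGGAA matched once each. The Tek window had 2 matches to CAGGAA before the start and 1 to AGATAA after it. Neither Gata2 start had a match. Among the other members, the first Tal1 start had 1 AGATAA and 1 CAGATG, and the third Erg start had 1 AGATAA and 1 CAGGAA. Of all 32851 windows in the table, 11.2% held AGATAA, 17.2% CAGATG, 30.6% CAGGAA and 14.9% CCGGAA, so these strings are common, and a match describes the letters only. The GC content of the windows was 50.0% for Cd34, 69.3% for Gata2, 67.3% for Hlf and 52.0% for Tek, against a median of 52.7% over all windows.

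Of the 9 members, 6 passed the filter on low counts. Angpt1 fell, Cd34, Gata2 and Hlf had negative values without passing the test, and Lmo2 and Erg had values near 0. Tal1, Procr and Tek had too few counts to be tested. By edgeR's quasi-likelihood test with Benjamini-Hochberg adjustment over 15963 genes (threshold 0.05), 1 member was lower and 0 were higher in knockout, where 3.12% of all genes were called lower, 5.45% higher and 8.57% in either direction. At an unadjusted p below 0.05, Angpt1 and Gata2 passed. The shares above are at the adjusted threshold. The share of all genes at the unadjusted cut-off is not given here, so no excess can be read from them. Log2 fold changes are knockout minus wild type, and their median was -0.62 over the 6 tested members and -0.01 over all genes tested. The knockout and wild-type libraries did not overlap for 1 of the 6, against 33.7% of all genes.

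**Figure D1:**
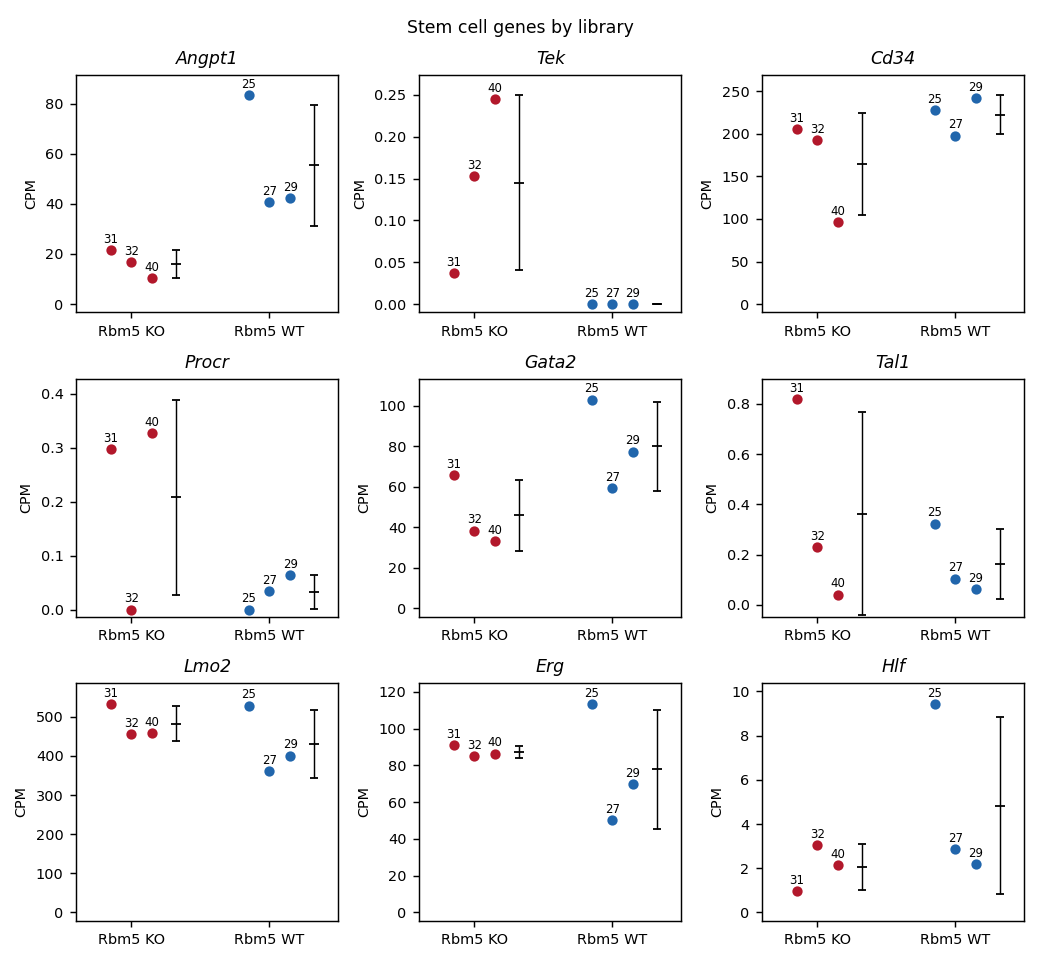
Level of each stem cell gene in CPM, by group, with 1 point per library (numbered) and the mean with its SD (bars, n = 3) to the right of the points. Angpt1 is the tested gene whose groups do not overlap, Tek, Procr and Tal1 stay below 1 CPM, and wild-type library 25 is the highest library for Angpt1, Gata2, Erg and Hlf.

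Angpt1 (ENSMUSG00000022309, chromosome 15, 42288119 to 42540373, on the minus strand, by coordinates of the deposited table, which names no build and whose positions differ from those of the GRCm38.p6 windows, so the 2 sets cannot be compared) encodes angiopoietin 1, the secreted ligand that activates TEK. Its level was 21.4, 16.7 and 10.3 CPM in knockout libraries 31, 32 and 40, against 83.4, 40.6 and 42.4 CPM in wild-type libraries 25, 27 and 29. Every knockout library lay below every wild-type library, and the wild-type values were split, with library 25 at 2.01 times the mean of libraries 27 and 29. The means were 16.2 ± 5.56 CPM in knockout and 55.5 ± 24.2 CPM in wild type (SD, n = 3 each). The log2 fold change was -1.78 ± 0.38 SE (95% interval -2.68 to -0.87, edgeR adjusted p = 0.0395), a level in knockout of 0.291 times that in wild type. Without wild-type library 25 the change was smaller, at -1.36, and still passed (adjusted p = 0.0484). Leaving out any other single library gave -1.54 to -2.04 and ended the call, with adjusted p of 0.0683, 0.0895 and 0.106 without knockout library 31, 32 or 40, and 0.0508 and 0.0623 without wild-type library 27 or 29. The libraries stood in nearly the reverse order of their neutrophil marker sums, library 25 highest for Angpt1 and lowest for the markers, and knockout library 40 lowest and highest, and the part of those cells in the difference was not tested.

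Tek (ENSMUSG00000006386, chromosome 4, 94627526 to 94763213, plus strand), the receptor of ANGPT1 and a marker of stem cells and endothelium, had 1, 4 and 6 counts in knockout libraries 31, 32 and 40 and 0 counts in each wild-type library. The groups did not overlap, at levels of a few reads. Against a limit of 3 counts summed over wild type, its 11 counts in knockout were 4.46-fold higher. That value allows for counting error in wild type only and takes the 11 knockout counts as exact. Tek stayed at or below 0.245 CPM in all 6 libraries. Fitted without the filter on low counts, Tek did not pass the edgeR test (adjusted p = 0.147). The rest of the angiopoietin and TIE list was sparse too. Of its 6 other genes, 3 were tested and 0 were called, at an unadjusted p below 0.05 as well. Angpt2, which can act against ANGPT1 at TEK, averaged 1.31 ± 0.349 CPM in knockout and 2.02 ± 0.412 CPM in wild type (SD, n = 3 each; log2 fold change -0.63, edgeR adjusted p = 0.300). Dok2, an adaptor that docks on TEK, had a log2 fold change of 0.33 (edgeR adjusted p = 0.512), which turned to -0.01 without knockout library 40.

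Cd34 (ENSMUSG00000016494, chromosome 1, 194621127 to 194643587, plus strand in the same table) encodes a sialomucin of the progenitor surface. Its levels were 205.9, 192.7 and 96.3 CPM in knockout libraries 31, 32 and 40, against 228.3, 198.0 and 241.9 CPM in wild-type libraries 25, 27 and 29. Knockout library 40 stood well below the rest, while libraries 31 and 32 were close to the wild-type range and library 31 was above wild-type library 27. Means of 165.0 ± 59.8 CPM in knockout and 222.7 ± 22.5 CPM in wild type (SD, n = 3 each) gave a log2 fold change of -0.43 (95% interval -1.09 to 0.22, edgeR adjusted p = 0.360). Without knockout library 40 the value was -0.16. The relatives and ligands of CD34 did not pass either, with 0 of 3 tested genes called of 4 listed, although Crkl, an adaptor that binds the CD34 tail, had an unadjusted p of 0.00943 (log2 fold change 0.41, edgeR adjusted p = 0.0755). Podxl2, the CD34 relative endoglycan, had a log2 fold change of -0.68 (edgeR adjusted p = 0.484), and leaving out wild-type library 25 moved it to -0.32, knockout library 31 to -0.26 and knockout library 32 to -1.22.

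Procr (ENSMUSG00000027611, chromosome 2, 155593037 to 155597391, plus strand), the endothelial protein C receptor and a surface marker of stem cells, had 8, 0 and 8 counts in knockout libraries 31, 32 and 40, against 0, 1 and 2 counts in wild-type libraries 25, 27 and 29. The ratio of the sums, 16 to 3 counts, was 6.49 (95% exact Poisson interval 1.86 to 34.8, counting error only), but knockout library 32 had none, so the groups overlapped. Fitted without the filter, it did not pass the edgeR test (adjusted p = 0.365). In the protein C and thrombin pathway 5 of 6 genes were tested and 0 were called by edgeR, 0 also at an unadjusted p below 0.05. Thbd, thrombomodulin, averaged 81.0 ± 24.7 CPM in knockout and 59.2 ± 1.98 CPM in wild type (SD, n = 3 each; log2 fold change 0.45, edgeR adjusted p = 0.194), and its fold change was 0.19 without knockout library 40. Pros1, the cofactor protein S, had a log2 fold change of 1.49 (edgeR adjusted p = 0.237), which was 0.97 without wild-type library 27 and 2.41 without wild-type library 29.

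Gata2 (ENSMUSG00000015053, chromosome 6, 88170873 to 88184014, plus strand) is needed for the upkeep of stem cells. Gata2 measured 65.8, 38.3 and 33.2 CPM in knockout libraries 31, 32 and 40, against 102.9, 59.3 and 77.3 CPM in wild-type libraries 25, 27 and 29. Knockout libraries 32 and 40 lay below all wild-type libraries, and knockout library 31 lay above wild-type library 27. The means were 45.8 ± 17.5 CPM in knockout and 79.9 ± 21.9 CPM in wild type (SD, n = 3 each), with a log2 fold change of -0.80 (95% interval -1.54 to -0.07, unadjusted p = 0.0367 and adjusted p = 0.157 by edgeR). DESeq2 called it lower (-0.80, adjusted p = 0.0336). Among 856 tested genes of chromosome 6, the median log2 fold change was -0.25 and 9% were called lower, against 3.12% of all genes tested. The part of that shift in the Gata2 value was not tested. Over 390 well expressed genes of chromosome 6, wild-type libraries 27 and 29 exceeded the other 4 by a median of 0.36 on the log2 scale. With both left out, Gata2 was at -1.18 (edgeR adjusted p = 0.236), where the lone wild-type library 25 is assumed to vary like the knockout libraries.

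Tal1 (ENSMUSG00000028717, chromosome 4, 114913623 to 114928952, plus strand), a factor required for blood formation, had 22, 6 and 1 counts in knockout libraries 31, 32 and 40, against 11, 3 and 2 counts in wild-type libraries 25, 27 and 29. Both groups spread widely and overlapped. The ratio of sums was 2.21 (95% exact Poisson interval 1.16 to 4.35, counting error only), and the unfiltered edgeR fit gave an adjusted p of 0.584. Its relative Lyl1, which can stand in for TAL1 and is named here after its values were seen, was at 280.6 ± 18.7 CPM in knockout and 281.5 ± 28.3 CPM in wild type (SD, n = 3 each; log2 fold change -0.00, edgeR adjusted p = 0.985).

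Lmo2 (ENSMUSG00000032698, chromosome 2, 103788331 to 103812223, plus strand), the bridging factor, had the highest level per length of the members. It had 533.3, 455.7 and 458.8 CPM in knockout libraries 31, 32 and 40, against 528.6, 360.8 and 400.7 CPM in wild-type libraries 25, 27 and 29. Wild-type library 25 lay within the knockout range and wild-type libraries 27 and 29 below it. Its log2 fold change was 0.17 (95% interval -0.18 to 0.51, edgeR adjusted p = 0.524), and it turned to -0.14 against wild-type library 25 alone.

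Erg (ENSMUSG00000040732, chromosome 16, 95160028 to 95387452, minus strand), an ETS factor of stem cells and endothelium, had 91.1, 84.9 and 86.4 CPM in the 3 knockout libraries 31, 32 and 40. The wild-type libraries 25, 27 and 29 had 113.5, 50.3 and 69.6 CPM. The knockout values thus sat in a narrow band inside a wide wild-type range, with SDs of 3.23 CPM in knockout and 32.4 CPM in wild type (n = 3 each). Its log2 fold change of 0.17 (95% interval -0.48 to 0.82, edgeR adjusted p = 0.739) turned to -0.08 without wild-type library 27 and to -0.39 against wild-type library 25 alone.

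Hlf (ENSMUSG00000003949, chromosome 11, 90227362 to 90281721, minus strand) encodes a PAR-type leucine zipper factor that is among the most specific markers of stem cells. It had 26, 80 and 52 counts in knockout libraries 31, 32 and 40, against 321, 82 and 69 counts in wild-type libraries 25, 27 and 29. In CPM these were 0.967, 3.06 and 2.12 in knockout and 9.44, 2.85 and 2.19 in wild type. Wild-type library 25 was 3.75 times the mean of libraries 27 and 29, which lay inside the knockout range. The log2 fold change of -1.24 (95% interval -2.75 to 0.27, edgeR adjusted p = 0.268) shrank to -0.30 without wild-type library 25. Of its 3 relatives, all tested, 0 were called at an adjusted p below 0.05, and Tef and Nfil3 had unadjusted p of 0.0112 each. Tef, a PAR factor that binds the same sites, had a log2 fold change of -0.84, and Nfil3, a repressor of those sites, one of 1.15 (edgeR adjusted p = 0.0824 each). Tef passed without wild-type library 29 (-1.03, edgeR adjusted p = 0.0485), and its edgeR adjusted p was 0.223 without knockout library 40. Nfil3 was at 0.70 without knockout library 40. DESeq2 called both, with adjusted p of 0.00922 for Tef and 0.00192 for Nfil3.

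**Figure D2:**
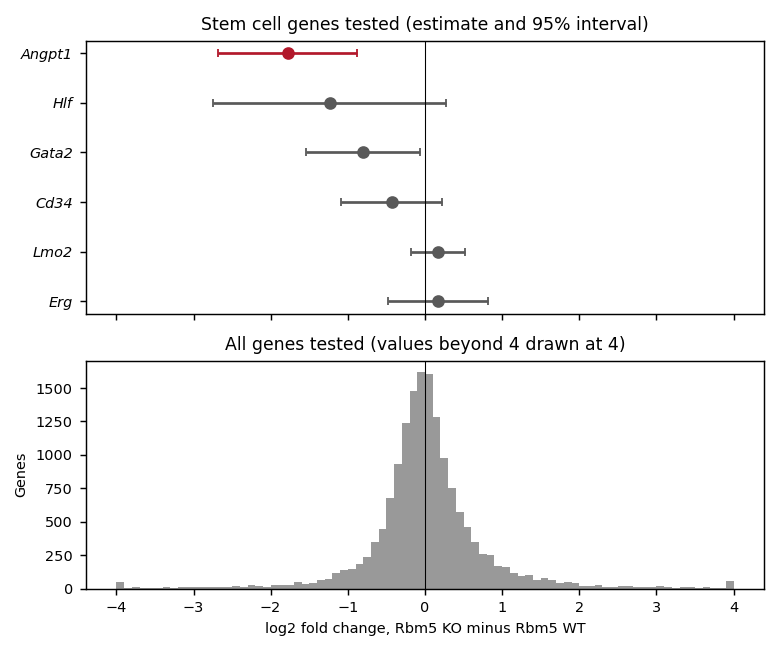
Upper panel, log2 fold change of the 6 tested stem cell genes, Rbm5 KO minus Rbm5 WT, with 95% intervals from edgeR and the gene past the threshold in red. Lower panel, the same quantity over all 15963 genes tested, as a histogram. The interval of Angpt1 ends at -0.87 and that of Gata2 at -0.07, and the other 4 include 0.

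Ordered by mean CPM per kilobase of the table's gene length over the 6 libraries, the members ran Lmo2, Cd34, Erg, Gata2, Angpt1, Hlf, Tal1, Procr and Tek. Lmo2, at 166.6 to 246.2 CPM per kilobase, did not overlap with Cd34, at 13.2 to 33.2. Cd34, Erg (14.5 to 32.8) and Gata2 (6.15 to 19.1) overlapped with their neighbours in that order. Angpt1, at 1.99 to 16.0, overlapped with Gata2 and stayed above Hlf, at 0.145 to 1.41. Hlf overlapped slightly with Tal1 (0.00933 to 0.187), and Tal1, Procr and Tek could not be told apart. Of the genes with an overlapping neighbour on the other strand, Lmo2 had 78489 counts over the 6 libraries against 1985 for its neighbour 4931422A03Rik, Cd34 had 34025 against 434 for Gm16897 and Angpt1 had 6610 against 8 for Gm17473. Erg shares its strand with an annotated noncoding gene of 689 counts against its own 14292. No source used here states how strand was used in the counts.

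Wild-type library 25 stood apart for most of the members. It was the highest wild-type library for Angpt1, Gata2, Lmo2, Erg and Hlf, by 2.01, 1.51, 1.39, 1.89 and 3.75 times the mean of libraries 27 and 29, while Cd34 was at 1.04 times. Of the 13424 tested genes with a mean of at least 1 CPM, 0.149% had a larger excess in library 25 than Hlf, 2.04% than Angpt1, 2.60% than Erg, 6.77% than Gata2, 9.40% than Lmo2 and 41.6% than Cd34 (log2 ratio with 0.1 CPM added). Library 25 also had the lowest neutrophil marker sum. Kit, the stem cell factor receptor, named after its values were seen, measured 110.1, 86.2 and 83.9 CPM in knockout libraries 31, 32 and 40, against 197.2, 79.7 and 117.6 CPM in wild-type libraries 25, 27 and 29, highest in library 25 as well. Kit is among the 10 myeloid progenitor markers. In library 25, Kit (2.00 times) and Spn (1.115 times) exceeded the mean of libraries 27 and 29, and the others lay below it. Mpo was at 0.281 times and Cebpa at 0.777 times. The sum of these markers was lowest in library 25, at 3465 CPM. Whether the members, Kit and the other markers go together in the same cells was not tested.

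**Figure D3:**
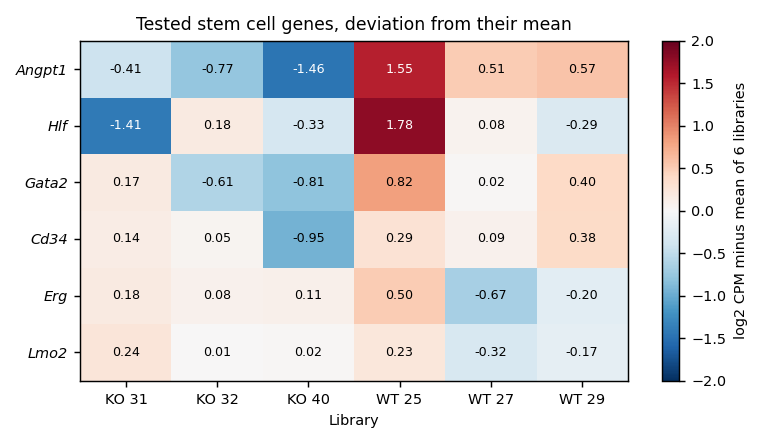
Deviation of each tested stem cell gene from its own mean over the 6 libraries, in log2 CPM, with libraries as columns (Rbm5 KO left, Rbm5 WT right) and the value printed in each cell. Wild-type library 25 is positive in every row, from 0.23 for Lmo2 to 1.78 for Hlf, and knockout library 40 is lowest for Angpt1, at -1.46, for Cd34, at -0.95, and for Gata2, at -0.81.

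Genes whose profile over the 6 libraries lay nearest to a member were sought for Angpt1 and Hlf, the members with an SD of at least 1 in log2 CPM, among 11547 protein-coding genes. Nearest to Angpt1 was Adgrg1, which encodes the adhesion receptor GPR56, a marker of human leukemia stem cells, with a root mean square difference of 0.10 in centred log2 CPM. Adgrg1 measured 49.7, 43.5 and 23.0 CPM in knockout libraries 31, 32 and 40, against 177.3, 90.3 and 105.6 CPM in wild-type libraries 25, 27 and 29. Sh3d19, an adaptor with SH3 domains, came next at 0.23, with 5.65, 5.54 and 3.55 CPM in knockout libraries 31, 32 and 40, against 18.6, 10.3 and 10.6 CPM in wild-type libraries 25, 27 and 29. As these genes were picked for their likeness over the same libraries, their difference between the groups is a description and no separate evidence. For Hlf the nearest genes were Tfpi, the tissue factor pathway inhibitor, at 0.32 and Tert, the telomerase reverse transcriptase, at 0.34. Neither passed the test, and both were picked for their likeness in the same way. Tert was at 0.361 times its wild-type level in knockout (log2 fold change -1.47, edgeR adjusted p = 0.110, and -0.95 without wild-type library 25). Tfpi was at 0.620 times (-0.69, edgeR adjusted p = 0.473, and 0.06 without wild-type library 25).

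Most partners of these factors did not pass the test, like most genes. Of all genes tested, 5.45% were called higher and 3.12% lower. Of 22 partners of the TAL1, LMO2, GATA2 and ERG complex, 19 were tested, 2 rose, 0 fell and 17 did not pass, with a median log2 fold change of 0.06; 1 rose when any library other than wild-type library 29 was left out. Lmo4, a relative of LMO2 that also binds LDB1, rose to 98.4 ± 8.32 CPM in knockout, against 58.5 ± 5.35 CPM in wild type (SD, n = 3 each; log2 fold change 0.75, edgeR adjusted p = 0.00956), and passed whichever library was left out. Fli1, the ETS factor closest to ERG, rose by 0.41 (adjusted p = 0.0439), but lost the call whichever library was left out (edgeR adjusted p up to 0.132). Among 14 other ETS factors, all tested, 2 rose, 1 fell and 11 did not pass, with a median of 0.16. They were Fli1, Spi1, which encodes PU.1 (0.43, edgeR adjusted p = 0.0368), and Elk3, a repressor (-0.52, edgeR adjusted p = 0.0375). Without knockout library 40 or 31, or with any wild-type library left out, 0 of these ETS factors were called.

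Among 31 other stem cell genes, 21 were tested, 3 rose, 3 fell and 15 did not pass, with a median log2 fold change of -0.03. The shares over all genes tested were 5.45% called higher and 3.12% lower. Msi2, an RNA-binding protein that sustains self-renewal, fell to 11.1 ± 0.359 CPM in knockout, against 35.9 ± 5.43 CPM in wild type (SD, n = 3 each; log2 fold change -1.69, edgeR adjusted p = 0.00238). Cd93, a surface receptor of progenitors and leukemia stem cells, fell to 240.6 ± 24.9 CPM in knockout, against 490.5 ± 13.9 CPM in wild type (-1.03, edgeR adjusted p = 0.00278). Both passed whichever library was left out. Mllt3, which encodes AF9, the partner of MLL in the fusion, fell to 0.632, 0.612 and 0.449 CPM in knockout libraries 31, 32 and 40, against 2.38, 1.98 and 2.47 CPM in wild-type libraries 25, 27 and 29 (log2 fold change -2.003, edgeR adjusted p = 0.0181, and 0.0698 without knockout library 40). Whether reads from the AF9 part of the fusion add to these counts was not tested. Eng, a TGF-beta co-receptor of stem cells and endothelium, rose by 1.46 (edgeR adjusted p = 0.0286, and up to 0.0792 without wild-type library 27). Mecom and Cxcr4 also rose, and are named here after their values were seen. Mecom, which encodes the stem cell factor EVI1, measured 16.5, 0.382 and 9.40 CPM in knockout libraries 31, 32 and 40, against 0, 0 and 0.0317 CPM in wild-type libraries 25, 27 and 29 (edgeR adjusted p = 0.0375, and up to 0.160 without wild-type library 29). Cxcr4, the receptor of the niche chemokine CXCL12, rose by 0.67 (edgeR adjusted p = 0.0375, and 0.112 without knockout library 40). Leaving out knockout library 31 or wild-type library 27 left 0 genes that rose, and 1 was left without knockout library 40 or wild-type library 25 or 29. Several classical markers were nearly absent, with 10 of the 31 not tested, among them Slamf1, Hoxb5 and Fgd5.

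Markers of leukemia stem cells went both ways. Of 9 surface markers, 8 were tested, 1 rose, 2 fell and 5 did not pass, with a median of -0.16. Adgrg1 and Cd93 fell, with 1 falling when any library other than knockout library 31 was left out. Adgrg1 fell by 1.68 (edgeR adjusted p = 0.0454) and lost the call whichever library was left out, with adjusted p up to 0.0887. Cd9, a tetraspanin, rose by 1.20 (edgeR adjusted p = 0.0368, and up to 0.0906 without wild-type library 25). Among 14 mouse counterparts of a human leukemia stem cell score, Cd34 not counted, 11 were tested, 3 fell, 0 rose and 8 did not pass, with a median of -0.43. The 3 were Cdk6, a cell cycle kinase (-0.99, edgeR adjusted p = 0.00802), Adgrg1, and Bex3, an adaptor of neurotrophin receptor signaling that lies on chromosome X (-0.85, edgeR adjusted p = 0.0109). Cdk6 and Bex3 passed whichever library was left out. Of all genes tested, 3.12% were called lower and 5.45% higher. Of the 11 score genes tested, 9 had negative values. Emp1, named here after its values were seen, had a log2 fold change of 1.84 and did not pass (edgeR adjusted p = 0.0541). In the score list, 1 gene was called higher without the filter on low counts, with at least 1 CPM in 3 libraries, and with DESeq2. Adgrg1 and Cd93 each appear in more than 1 of these lists, and the lists were chosen with earlier results of these data known.

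**Figure D4:**
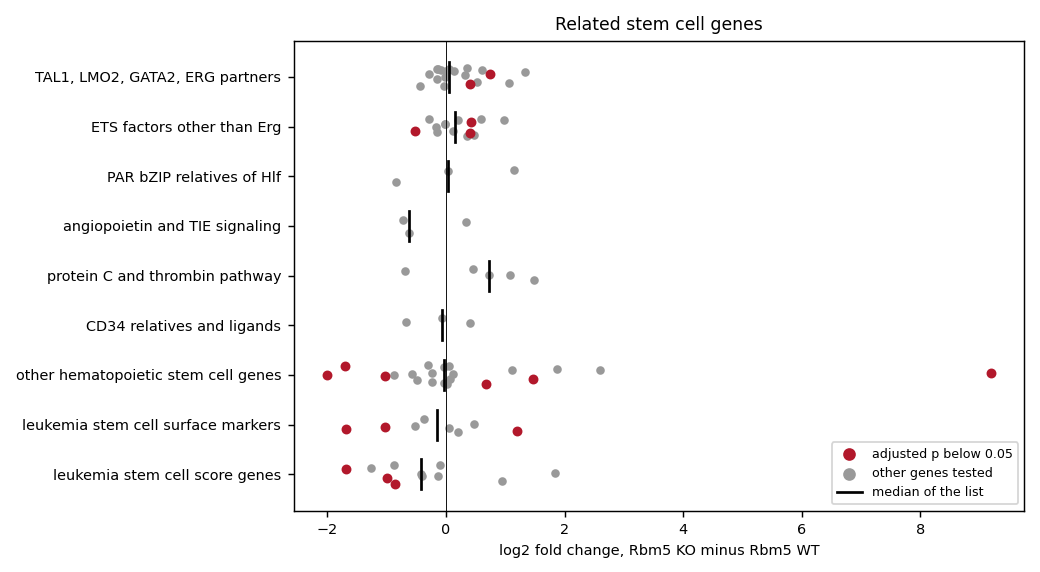
log2 fold change, Rbm5 KO minus Rbm5 WT, of the tested genes in 9 lists related to the stem cell genes, with 1 point per gene, genes past the edgeR threshold in red and the list median as a bar. The highest point, at 9.19, is Mecom, and the lowest is Mllt3.

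Of the 10 myeloid progenitor markers all were tested and 3 rose (Ptprc, Itgam and Spi1), with a summed level of 4961 to 6360 CPM in knockout and 3465 to 4251 CPM in wild type. The largest part was Elane, at 1746.5 CPM in knockout and 966.8 CPM in wild type on average (edgeR adjusted p = 0.0564). Kit and Cebpa had lower means in knockout (edgeR adjusted p = 0.380 and 0.227), while the rest had higher ones. Of 11 endothelial markers, 7 stayed below 1 CPM in every library, Emcn was at 0 counts throughout, and the sum of 86.3 to 162.0 CPM in knockout and 105.5 to 192.9 CPM in wild type came mostly from Pecam1, which leukocytes also express. Plvap, at 0.643 ± 0.142 CPM in knockout and 3.43 ± 1.64 CPM in wild type (SD, n = 3 each), was the endothelial marker that fell (edgeR adjusted p = 0.0202). Pecam1, Egfl7, Sox17 and Ramp2 also had lower means in knockout. Vwf, at 7.54 CPM in knockout and 4.34 CPM in wild type (edgeR adjusted p = 0.219), Cdh5, Esam, Kdr and Robo4 had higher ones. For mast cells and basophils, Fcer1a and Tpsb2 were at 0 in all libraries, and the 8 markers summed to 65.5 to 181.4 CPM in knockout and 81.8 to 156.2 CPM in wild type. The largest part was Hdc, at 99.4 CPM in knockout and 83.0 CPM in wild type on average (edgeR adjusted p = 0.801). Cpa3, at 4.70 CPM in knockout and 12.7 CPM in wild type (edgeR adjusted p = 0.177), and Mcpt8 had lower means in knockout. Like Hdc, the markers Prss34, Ms4a2 and Cma1 had higher ones. Megakaryocyte markers, 8 in number, summed to 51.7 to 82.7 CPM in knockout and 40.9 to 90.0 CPM in wild type, with Gp9 higher. The largest part was Itgb3, at 46.9 CPM in knockout and 55.0 CPM in wild type on average (edgeR adjusted p = 0.725). Itga2b and Gp1ba also had lower means in knockout, while the rest of these markers had higher ones. The 8 stromal markers, a source of Angpt1 in marrow, summed to 31.2 to 41.8 CPM in knockout and 35.7 to 71.9 CPM in wild type, and Adipoq, Kitl and Pdgfra stayed below 1 CPM in every library. The lower sum came from Pdgfrb, at 22.6 CPM in knockout and 47.5 CPM in wild type on average (edgeR adjusted p = 0.132), while the other 7 had higher means in knockout, such as Col1a1 with 7.35 CPM in knockout and 1.97 CPM in wild type (edgeR adjusted p = 0.0849). The eosinophil markers, cells that also use GATA2, summed to 98.4 to 161.9 CPM in knockout and 52.0 to 133.7 CPM in wild type, with Prg2 higher among the 6. The largest part was Siglecf, at 69.0 CPM in knockout and 80.4 CPM in wild type on average (edgeR adjusted p = 0.728). Il5ra also had a lower mean in knockout, while Epx, Prg2, Prg3 and Ccr3 had higher ones. The 9 erythroid markers summed to 3.64 to 5.54 CPM in knockout and 1.46 to 2.91 CPM in wild type, ranges that did not overlap, and Hbb-bs rose to 1.01 CPM in knockout, against 0.113 CPM in wild type (edgeR adjusted p = 0.0238). The 8 monocyte and macrophage markers summed to 1190 to 1529 CPM in knockout and 1002 to 1505 CPM in wild type. Most of that sum was Ly6c2, at 766.8 CPM in knockout and 942.1 CPM in wild type (edgeR adjusted p = 0.404), and the other 7 had higher means in knockout. Of these, Csf1r rose to 278.1 CPM in knockout, against 130.3 CPM in wild type (edgeR adjusted p = 0.0214), and Ms4a7 rose to 0.770 CPM in knockout, against 0.115 CPM in wild type (edgeR adjusted p = 0.0498). The 6 B cell markers summed to 9.56 to 29.7 CPM in knockout and 9.88 to 29.1 CPM in wild type, and the 6 T and NK cell markers to 1.34 to 4.02 CPM in knockout and 0.588 to 0.799 CPM in wild type. The part of any of these cells in the differences was not tested.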

How the data were processed

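The authors deposited a table of whole-number counts per gene for 6 libraries, not normalized, with gene names, coordinates, biotypes and lengths. RNA was extracted with TRIzol and sequenced by a commercial company, per the labels' protocols. The tools Salmon and limma and the genome builds mm10 and GRCm38 appear, per the submitters' processing notes, with no role. No source used here states whether the counts are rounded estimates. The deposited gene length, which has no further unit note, served only for CPM per kilobase. Groups follow the sample titles, and no number occurs in both groups. Libraries of 1 group always differed beyond sampling noise (chi-square per degree of freedom of at least 44.6).

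Genes were kept by filterByExpr (minimum count 10, minimum total 15), scaled by TMM and fitted across all genes with edgeR's robust quasi-likelihood test (edgeR 4.0.16 in R 4.3.3) on the group alone; the script was tested on simulated data. P-values were adjusted by Benjamini-Hochberg across every gene tested (threshold 0.05). Each standard error was derived from the F statistic of its fold change, and log2 CPM uses a prior count of 2. Alternatives were other scalings and filters, DESeq2 1.42.0, limma-voom (limma 3.58.1), each library left out in turn, and wild-type libraries 27 and 29 left out.

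The members and lists were chosen with earlier results of these data known. All members were named. From each list the 4 called genes with the smallest p were named, or the 2 with the smallest p where none was called, besides the nearest profiles, Rbm5 and Ddx3y. Markers and untested genes are given where their list is described.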

Additional observations from a re-analysis of the deposited data

How the results depend on the processing

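Over 14 alternatives, Cd34, Angpt1, Hlf and Gata2 kept a negative log2 fold change in each. Angpt1 passed in 8 of them, with values from -2.38 to -1.36 and adjusted p from 1.31e-06 with DESeq2 to 0.139 without a filter on low counts. With 1 library left out, Erg ranged from -0.081 (without wild-type library 27) to 0.54, Dok2 from -0.013 (without knockout library 40) to 0.58, and Tfpi from -1.02 to 0.057 (without wild-type library 25). With wild-type libraries 27 and 29 left out, Erg was at -0.39 and Lmo2 at -0.14. The cause was not tested.

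Members called lower numbered 0 without the filter, 2 with DESeq2 (Angpt1 and Gata2) and 0 to 1 with a library left out; those called higher numbered 0 in every alternative. Over all genes, DESeq2 called 1486 higher and 989 lower, against 870 and 498 in edgeR, and the unfiltered fit called 836 lower. Leaving out 1 library gave 245 to 787 higher and 102 to 440 lower. With wild-type libraries 27 and 29 left out, 305 were higher and 148 lower. Total-count scaling moved the median of all genes to -0.13, with 597 higher and 682 lower. No paired analysis was possible because the groups share no replicate numbers.

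Depth limits Tal1, Procr and Tek, with 29, 16 and 11 counts over the knockout libraries and 16, 3 and 0 over the wild-type libraries.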
